A study of Macaca mulatta with 12 samples.

Results

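Earlier and later fetal prefrontal cortex of the rhesus macaque were compared by setting the 3 fetal animals labelled 72, 57 and 53 days before birth against the 3 labelled 42, 35 and 30 days before birth. The members were chosen by these age labels alone, and they are 6 of the 12 animals in the series. The other 6 animals were postnatal, aged 1 to 831 days, and appear below only as reference values. All 12 were untreated males that had died suddenly. The tissue was superior frontal gyrus, part of the prefrontal cortex, taken after death. Each animal had 1 array of the type Affymetrix Human Gene 1.0 ST, which carries probes for human transcripts. Each fetal animal had an age of its own, so the spread within a group of 3 includes age as well as animal.

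In the last months before birth the primate prefrontal cortex has made most of its excitatory neurons, and these grow axons and dendrites, form synapses and take up receptors and channels of the mature kind. Radial glia, the stem cells of the fetal cortex, give way to astrocytes and later to oligodendrocytes, which wrap axons in myelin. Blood vessels and microglia, the resident immune cells, spread through the tissue in the same period. In bulk tissue, fewer cells of a type and less RNA per cell cannot be told apart.

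Expression values are given on the deposited log scale, read as log2, and a difference is always later minus earlier. Across 9630 array rows the median difference was -0.03 and the median standard error 0.203. The arrays' medians lay between 3.98 and 4.32, with the 57-day array highest. Pearson correlations across rows between pairs of fetal arrays lay between 0.936 and 0.981. On the first principal component of the 6 arrays, which held 41.6% of the variance, the 57-day array lay at 35.1 and the 30-day array at -23.9, with the other 4 between -10.7 and 1.49. So the 57-day and 30-day arrays lay farthest out on this component, 1 in each group. Many results are also given without the 30-day array, and some without the 57-day array.

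No row passed the test. limma's moderated test with Benjamini-Hochberg adjustment over all rows called 0 of 9630 (0%) at an adjusted p under 0.05, and the smallest adjusted p was 0.553. At an unadjusted p under 0.05 there were 739 rows, or 7.67% of those tested, of which 332 were higher in the later animals (3.45%) and 407 lower (4.23%). Higher rows made up 44.9% of the rows at that level as deposited. The share was 49.0% of the rows at that level after quantile normalization and 56.0% of those after centring each array on its median. The 3 values of one group lay wholly above or below the 3 of the other in 1305 rows (13.6%), 604 of them higher in the later animals (6.27%) and 701 lower (7.28%). Differences of at least 1 log2 unit were seen in 13 rows upward (0.135%) and 19 downward (0.197%). A slope fitted on age in days, in place of the split, also called 0 rows, with a smallest adjusted p of 0.521 and 571 rows (5.93%) at an unadjusted p under 0.05, 314 with a slope toward higher values (3.26%) and 257 toward lower ones (2.67%). When limma weighted the arrays by how well each followed its group, 401 rows were called higher and 180 lower (6.03% in all). Those weights ran from 0.243 for the 57-day array to 6.26 for the 53-day array. The genes below are therefore described by their values and are not called.

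Among genes with higher values in the later animals and groups that did not overlap, those with the smallest p included genes of neuronal excitability and synapses. TRAPPC6B, a subunit of the complex that tethers vesicles on their way through the Golgi, measured 5.71, 5.91 and 5.78 at 72, 57 and 53 days before birth and 6.51, 6.55 and 6.66 at 42, 35 and 30 days. Its difference was 0.77 ± 0.17 (SE), or 1.71-fold, and it was 0.73 without the 30-day array. SCN8A, a sodium channel of the axon initial segment, measured 5.75, 5.76 and 5.87 in the earlier animals and 6.50, 6.38 and 6.54 in the later ones. The difference was 0.68 ± 0.16 (SE), or 1.60-fold. A further SCN8A row differed by 0.80, in the same direction. SYN2, which binds synaptic vesicles to the cytoskeleton, measured 5.40, 5.69 and 5.35 against 6.17, 6.08 and 6.33. Both genes' 42- and 35-day values lay above every earlier value, as the choice of genes with separate groups required. Without the 30-day array both genes differed by 0.64.

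FGF2, a growth factor for neural progenitors and glia, measured 4.27, 3.21 and 3.68 in the earlier animals and 5.26, 4.72 and 4.83 in the later ones. It had the largest difference of the 10 such genes, 1.22 ± 0.27 (SE), and the 42-day animal was the highest. CLSTN2, a synaptic adhesion protein of the calsyntenin family, measured 3.82, 3.81 and 4.06 against 4.58, 4.62 and 5.19. PDE7B, which breaks down cyclic AMP, measured 3.29, 3.65 and 3.49 against 4.23, 4.02 and 4.53. In both genes the 30-day animal was the highest, and without it their differences went from 0.90 and 0.78 to 0.70 and 0.65. The remaining genes of this group were DGKD, KDM7A, ARHGAP26 and ATP2B4, with differences between 0.70 and 0.92. DGKD is a diacylglycerol kinase, KDM7A a histone demethylase and ATP2B4 a calcium pump of the cell membrane. All 10 had limma adjusted p = 0.553.

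Genes with lower values in the later animals included receptors and matrix genes. PTH2R, a receptor for the neuropeptide TIP39, measured 6.0, 5.95 and 5.44 in the earlier animals and 4.26, 4.94 and 3.83 in the later ones. The difference was -1.45 ± 0.28 (SE), or 2.74-fold lower, and -1.20 without the 30-day array. With values under each array's 20th percentile raised to it, PTH2R was 1 of 2 rows called (0.0208%), with limma adjusted p = 0.0275. The postnatal values of PTH2R lay lower still, between 1.95 and 3.33. HAS2, which makes hyaluronan, measured 4.59, 5.08 and 5.34 against 3.95, 4.12 and 3.93, and NPY1R, a receptor of neuropeptide Y, 5.11, 5.37 and 5.50 against 4.15, 4.69 and 4.34. The groups of all 3 genes were separate, as the choice of genes required, with the 35-day animal nearest to the earlier group. FRZB, a secreted Wnt inhibitor, measured 4.49, 4.57 and 4.33 against 3.99, 2.93 and 2.96, and BOC, a co-receptor for hedgehog and netrin signals, 3.25, 3.80 and 3.49 against 2.89, 2.36 and 2.43. For these 2 genes it was the 42-day animal that lay nearest to the earlier group.

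S100A10, a partner of annexin A2 at the cell membrane, measured 5.22, 5.31 and 5.31 against 4.61, 4.52 and 4.14, a difference of -0.86 ± 0.18 (SE). Its postnatal values, between 5.06 and 6.87, lay mostly at or above the earlier fetal ones, so the later fetal animals were the lowest of the series. KLF6, a zinc-finger transcription factor, and H2BC7, a core histone, had differences of -0.77 and -0.90. The other 2 of the 10 lower genes, PSMB6 and PSMA7, encode proteasome subunits and are taken up with that complex. SYT10, a synaptotagmin, had the smallest unadjusted p of all rows, but its 6 fetal values, from 1.57 to 2.72, all lay under their arrays' 20th percentile. Raised to that floor, its difference was -0.03. The 10 lower genes also had limma adjusted p = 0.553.

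**Figure D1:**
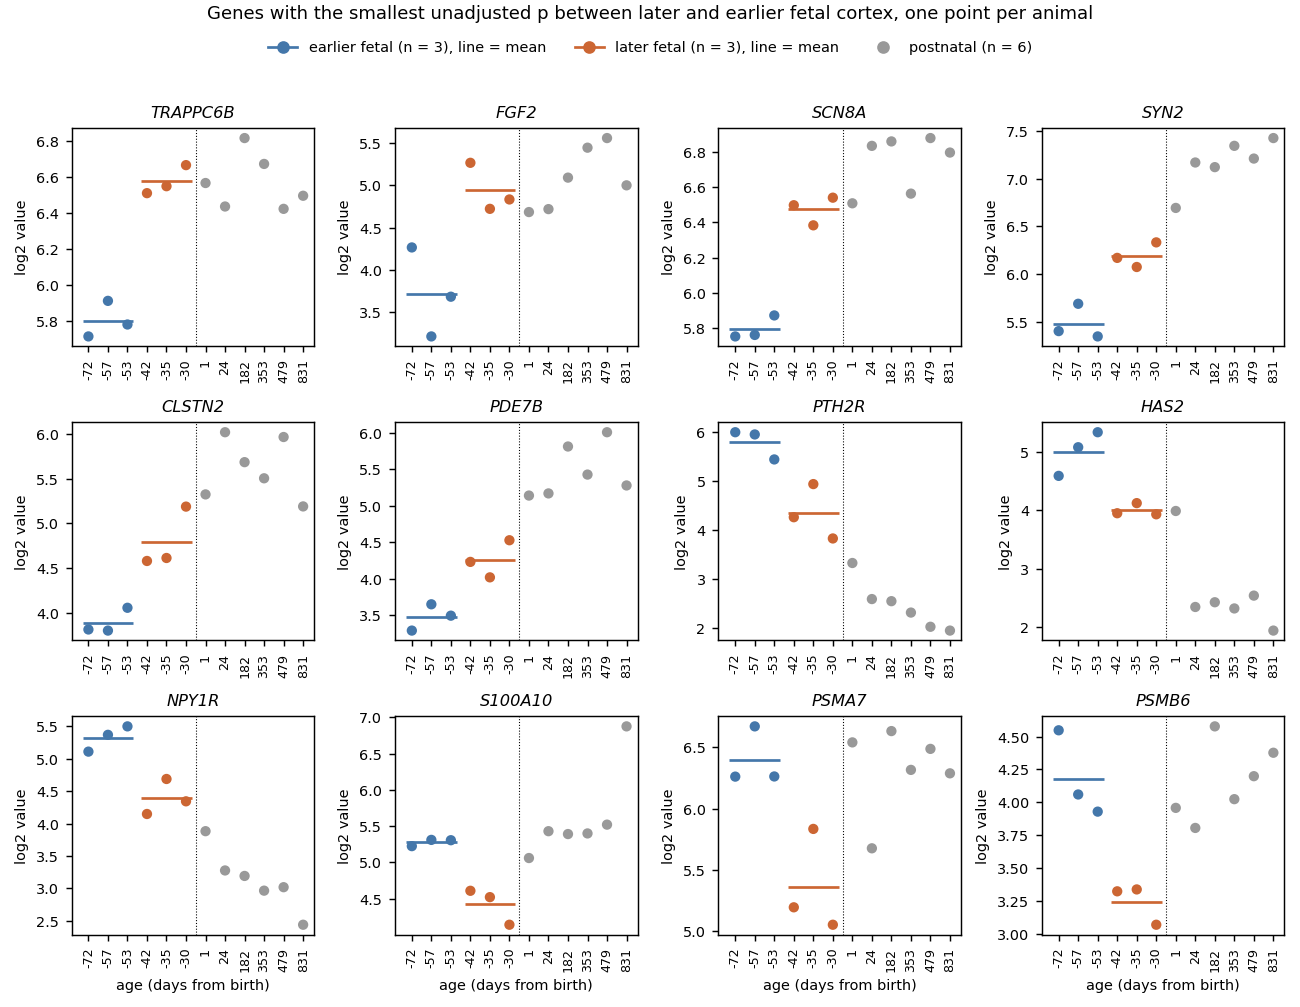
Deposited log2 values (y axes) of 12 genes against age in days from birth (x axes, animals evenly spaced in order of age), 1 point per animal and a line at the mean of each group of 3, with the 6 postnatal animals in grey. In TRAPPC6B the earlier animals lie between 5.71 and 5.91 and the later ones between 6.51 and 6.66, and in PTH2R between 5.44 and 6.0 against 3.83 and 4.94.

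Gene groups were then read by counts and medians, beside the same quantities over all rows. Over all rows 45.1% of differences were above 0 and 54.9% below, and without the 30-day array 52% were above 0. The groups were lists of known genes, and only their measured members are counted. A member is counted here as higher or lower at an unadjusted p under 0.05, a level that 3.45% and 4.23% of all rows reached, and no member of any list passed the adjusted threshold.

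Synaptic genes lay above 0 as a group. Of 25 measured genes of the presynaptic terminal, 4 were higher and 0 lower, 20 differences were above 0 and the median was 0.32. The 4 were SYN2, SLC17A7, UNC13A and SYP. SLC17A7, which loads glutamate into vesicles, measured 5.52, 5.40 and 5.35 in the earlier animals and 6.19, 5.88 and 6.53 in the later ones. UNC13A, which primes vesicles for release, measured 5.54, 5.50 and 5.48 against 6.02, 6.02 and 5.98. UNC13A was nearly level within each group, whereas SLC17A7 was highest in the 30-day animal. Without the 30-day array the presynaptic median was 0.14 and 3 members were higher. SYT4, a vesicle protein, and SLC17A6, the glutamate transporter that dominates in subcortical neurons, ran the other way at -0.40 and -0.29.

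Of 24 genes of the postsynaptic density, 4 were higher and 0 lower, with a median of 0.22, or 0.16 without the 30-day array. The 4 were CAMK2A, DLG1, LRRTM2 and IQSEC2. IQSEC2 had 4 fetal values under the 20th percentile, and with values raised to that floor its difference of 0.40 became 0.09. CAMK2A, the alpha subunit of the calcium kinase of dendritic spines, measured 5.04, 5.01 and 5.10 in the earlier animals and 6.10, 5.40 and 6.70 in the later ones. Its difference of 1.02 became 0.70 without the 30-day animal, and the 35-day value lay nearest to the earlier group. DLG1, a scaffold protein of the synapse, measured 5.49, 5.34 and 5.57 against 6.35, 5.87 and 6.50. LRRTM2, an adhesion protein that binds neurexins, was different in that the 30-day animal was the lowest later one, at 6.08 against 6.48 and 6.65.

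Of 19 glutamate receptor genes, 2 were higher and 0 lower, with a median of 0.21 (0.18 without the 30-day array). GRIN2A, the NMDA receptor subunit typical of mature synapses, measured 5.31, 5.02 and 5.30 against 6.0, 5.51 and 6.09. GRIN2B, the subunit that prevails before birth, measured 7.79, 7.19 and 7.88 against 7.93, 8.05 and 7.93, and its difference of 0.35 ± 0.21 (SE) did not reach the unadjusted level. The AMPA receptor subunit GRIA3 differed by 0.48. The groups of GRIN2A, GRIA3 and GRIN2B did not overlap, though GRIN2B's highest earlier value, 7.88, lay close to its lowest later one, 7.93. GRIN2B's 57-day value alone lay well below the rest, and without that array its difference was 0.13.

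Of 15 genes of GABA synthesis, transport and reception, 12 lay above 0 and 1, the receptor subunit GABRG1, was higher, with a difference of 0.58. Among 6 chloride transporters, SLC12A5, the neuronal exporter that sets the direction of GABA's effect, measured 4.07, 3.77 and 3.71 in the earlier animals and 4.65, 4.17 and 4.76 in the later ones. Its difference was 0.68 ± 0.21 (SE), or 1.60-fold, and 0.56 without the 30-day array. Of the 6 transporters, 3 differences were above 0 and 3 below, and the list's median was -0.01. Of 19 voltage-gated channels, 2 were higher, SCN8A and the potassium channel KCNA1, and the median was 0.14. KCNA1 measured 3.33, 3.87 and 3.35 against 4.12, 4.27 and 4.52. The channel median moved little without the 30-day array, to 0.12, and it was 0.24 without the 57-day array. Interneuron markers had 0 of 13 members at the unadjusted level and a median of -0.11, or 0.08 without the 57-day array.

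Genes of immature neurons lay lower. Of 15 measured, 13 differences were below 0, 3 were lower and 0 higher, and the median was -0.36. DCX, a microtubule protein of migrating neurons, measured 7.85, 7.64 and 7.65 in the earlier animals and 7.17, 7.57 and 6.72 in the later ones. STMN1, which destabilises microtubules, measured 8.20, 7.87 and 8.03 against 7.50, 7.55 and 7.35, and NREP, a protein of growing neurons, 9.58, 9.27 and 9.93 against 9.18, 9.10 and 8.92. STMN1 and NREP were low in all 3 later animals, whereas the 35-day value of DCX lay just below the earlier group. The list's median was -0.21 without the 30-day array, and 1 member, STMN1, was still lower. Averaged over the list and set against the mean of the 6 fetal arrays, the score was 0.17, 0.18 and 0.14 in the earlier animals and -0.14, 0.08 and -0.43 in the later ones.

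Axon growth and guidance genes had 20 of 27 differences below 0 and a median of -0.16, with 2 members lower. These were the ephrin receptors EPHA3, at 3.58, 5.05 and 5.26 against 3.57, 4.02 and 3.65, and EPHA5, at -0.40. EPHA3's 72-day value lay at the level of the later animals. The list's median was -0.09 without the 30-day array, where 0 members were lower and 1 was higher, the guidance ligand SEMA3C. Of the cortical layer markers, 0 of 9 upper-layer and 2 of 10 deep-layer genes lay under the 20th percentile on all 6 arrays, against 2 of 6 striatal markers, which does not identify the tissue. Upper-layer markers held 2 lower genes of 9, the transcription factors LHX2 and POU3F2, with differences of -0.72 and -0.65. Deep-layer markers held 1 lower gene of 10, CRYM, a thyroid hormone binding protein, at -0.46. All 4 measured subplate markers lay above 0, and 2 of them, CCN2 and CDH18, reached the unadjusted level. CDH18, a cadherin, measured 3.15, 3.65 and 3.54 against 4.40, 3.45 and 4.85, so its groups overlapped through the 35-day animal. CCN2, a secreted matrix protein, differed by 0.61, with 5 of its 6 values under the 20th percentile. The subplate median of 0.52 was 0.32 without the 30-day array, and then 0 members reached the unadjusted level.

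Progenitor genes were mixed. Of 15 markers of radial glia and neural progenitors, 2 were higher and 1 lower, with a median of 0.12. PAX6, a transcription factor of radial glia, measured 2.67, 3.10 and 2.86 in the earlier animals and 3.55, 3.44 and 3.32 in the later ones. FABP7, a fatty acid binding protein of radial glia, ran the other way, at 8.47, 8.12 and 8.40 against 8.17, 7.77 and 7.22. The median was -0.01 with array weights. MOXD1, the other higher member, differed by 0.58.

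Cell cycle genes had 12 of 17 differences below 0 and a median of -0.21, with 5 lower and 1 higher. MCM4 and MCM7, helicase subunits that open DNA for replication, differed by -0.55 and -0.66, and RRM1, PCNA and CCNA2 by -0.53, -0.48 and -0.49. MCM7 had 4 of its 6 values under the 20th percentile, and with values raised to that floor it differed by -0.18. CCND2, a G1 cyclin, was the member in the other direction, at 6.60, 6.41 and 6.69 against 7.06, 6.99 and 7.57. MKI67 and TOP2A, proliferation markers, differed by -0.01 and 0.11, and 5 of the 17 genes lay under the 20th percentile on all 6 arrays. Without the 30-day array the list's median was -0.10, and 2 members were higher and 1 lower. The list's score was -0.10, 0.27 and 0.09 in the earlier animals and 0.08, -0.05 and -0.30 in the later ones. The 72-day animal thus lay below the 42- and 35-day animals. Notch and Wnt pathway genes, at medians of 0.03 (-0.16 without the 72-day array) and -0.10, had 1 of 11 and 0 of 12 members at the unadjusted level. The Notch member was DLL3, a ligand of the family, at -0.80. It had 5 of its 6 values under the 20th percentile, and with values raised to that floor it differed by -0.09.

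Markers of glia and vessels lay mostly above 0. Of 13 astrocyte markers, 10 lay above 0, 2 were higher and the median was 0.24. The list's score was -0.10, -0.17 and -0.20 in the earlier animals and 0.07, -0.14 and 0.53 in the later ones, so the 30-day animal was the highest, the 42-day animal also lay above all earlier ones and the 35-day animal lay among them. GFAP, the intermediate filament of astrocytes, measured 5.53, 5.35 and 5.61 against 5.85, 5.73 and 7.24. SLC1A2, the glial glutamate transporter, measured 6.78, 6.02 and 6.58 against 7.33, 6.79 and 7.96. Without the 30-day array no astrocyte marker reached the unadjusted level, and GFAP's difference of 0.78 became 0.29.

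Endothelial and pericyte markers had 13 of 14 differences above 0, 4 members higher and a median of 0.35. FLT1, a receptor of vascular endothelial growth factor, measured 3.15, 3.47 and 2.91 in the earlier animals and 4.45, 3.54 and 4.26 in the later ones. SLC2A1, the glucose transporter of the blood-brain barrier, measured 3.89, 4.13 and 3.69 against 4.33, 4.34 and 4.46. The drug exporter ABCB1 and the pericyte receptor PDGFRB differed by 0.47 and 0.48. ABCB1 had 5 fetal values under the 20th percentile, and with values raised to that floor it differed by 0.11. The list's median was 0.29 without the 30-day array, and 1 of the 4, FLT1, was still higher. The score lay between -0.31 and 0.04 in the earlier animals and 0.07 and 0.23 in the later ones. SLC2A1, PDK1 and VEGFA, the ligand of FLT1, were the 3 higher members of 9 measured hypoxia genes. VEGFA measured 3.10, 3.61 and 3.04 against 3.89, 3.71 and 4.19. PFKFB4, a regulator of glycolysis in the same list, was lower at -0.75, and the list's median was -0.15, or 0.05 without the 57-day array.

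Microglia markers were thinly covered, with 6 of 21 listed genes measured. Their score lay between -0.20 and -0.05 in the earlier animals and was 0.14, -0.17 and 0.48 in the later ones. Of the 6, 5 lay above 0 and 2 were higher, CX3CR1, the fractalkine receptor, at 2.94, 3.24 and 2.93 against 3.63, 3.20 and 4.20, and CSF1R, at a difference of 0.59. The 35-day animal lay within the earlier range for CX3CR1. The median of 0.50 was 0.30 without the 30-day array, where 0 members were higher and 1 was lower, CTSS, a lysosomal protease, at -0.69. Myelin genes showed no such shift, with 0 of 10 members at the unadjusted level and 5 of 10 under the 20th percentile in all 6 animals. MBP, the main protein of compact myelin, measured 1.70, 3.07 and 1.78 in the earlier animals and 2.10, 2.18 and 2.33 in the later ones, against 4.87 to 7.75 after birth. Its difference was 0.02 ± 0.32 (SE), and the list's median of -0.06 was 0.22 without the 57-day array. Oligodendrocyte precursor markers had 0 of 7 at that level and a median of 0.13.

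Meningeal and fibroblast markers, which stand for tissue at the surface of the dissected block, lay lower, with 8 of 9 differences below 0, 2 members lower and a median of -0.37. The 2 were the collagen-binding proteoglycans DCN, at 6.61, 6.40 and 6.53 against 6.25, 5.76 and 5.09, and LUM, at 3.66, 4.04 and 3.99 against 3.39, 3.14 and 2.42. The list's score was 0.40, 0.05 and 0.18 in the earlier animals and 0.03, -0.24 and -0.41 in the later ones. None of these 9 markers lay under the 20th percentile on all 6 arrays, but only 3 of the 9 lay above it on all 6. The single measured red blood cell marker, ALAS2, lay under it on all 6 arrays, at a difference of -0.06. The 2 measured markers of ependyma and choroid plexus had a median of 0.02, and 1 of them, TTR, the thyroid hormone carrier of choroid plexus, was lower at -0.55, with 5 of its 6 values under that percentile. The part of these other cell types in the differences above was not tested.

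**Figure D2:**
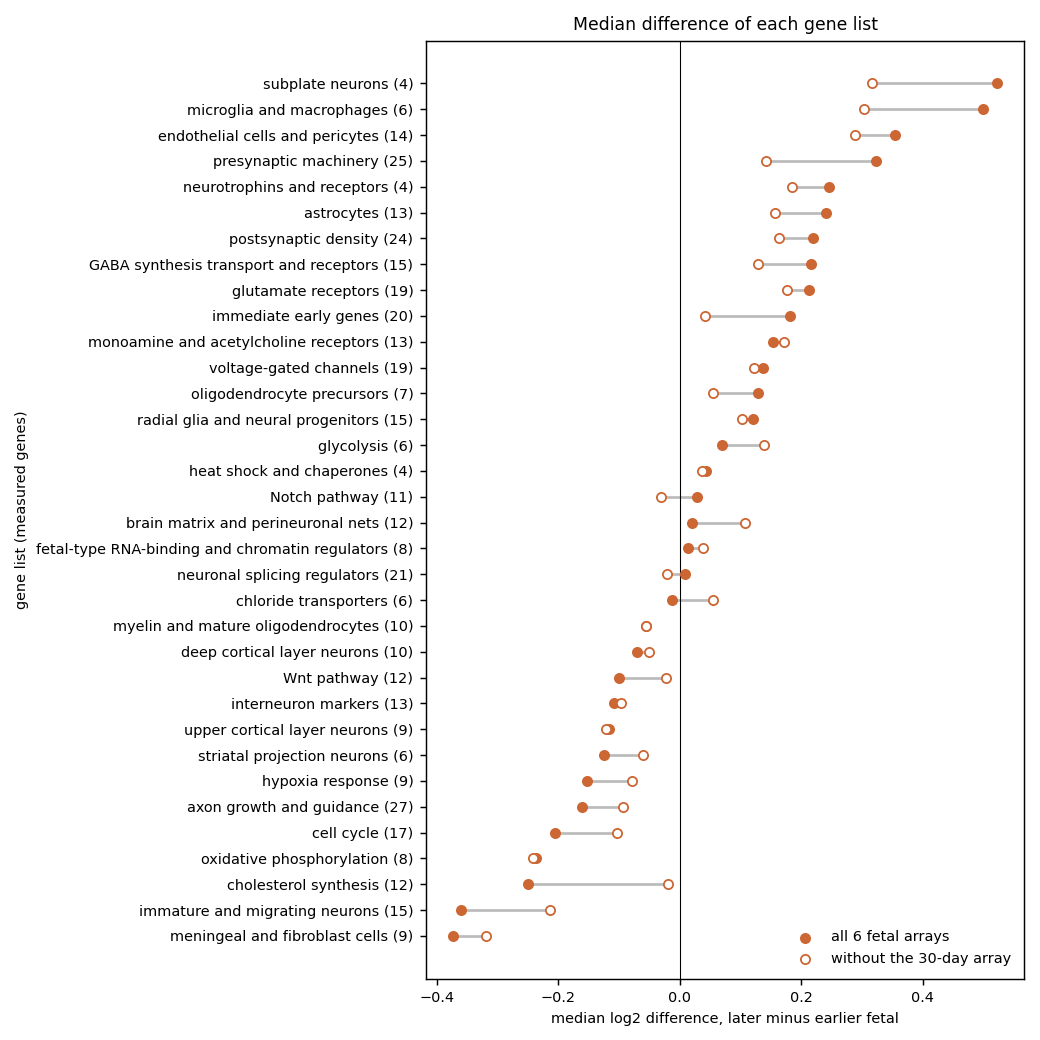
Median log2 difference, later minus earlier, of each gene list with at least 3 measured genes (y axis, number of genes in brackets), without the 3 added lists, with all 6 arrays (filled points) and without the 30-day array (open points). The presynaptic median moves from 0.32 to 0.14 and that of immature neurons from -0.36 to -0.21, while that of voltage-gated channels goes from 0.14 to 0.12.

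Proteasome subunits were looked at after PSMA7 and PSMB6 had been seen among the lowest p-values, so this list and the 2 that follow were chosen after their values were known. Of 26 measured subunits, 23 differences were below 0, 8 were lower and 0 higher, and the median was -0.27. PSMA7, of the outer ring of the core particle, measured 6.26, 6.67 and 6.26 in the earlier animals and 5.19, 5.83 and 5.05 in the later ones. PSMB6, of the catalytic ring, measured 4.55, 4.06 and 3.93 against 3.32, 3.34 and 3.07. PSMB5, another catalytic subunit, measured 5.77, 5.65 and 5.80 against 4.97, 5.35 and 5.13. The groups were separate in these 3 genes, which for PSMA7 and PSMB6 followed from how they were chosen. Without the 30-day array 7 subunits were still lower and the median was -0.35. Without the 57-day array the median was -0.14, and the list's score was highest in that animal, at 0.39 against 0.03 and 0.10 in the other earlier ones.

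Among 11 measured subunits of translation initiation factor 3, which brings messenger RNA to the ribosome, 4 were lower and 0 higher, and the median was -0.21. EIF3K measured 4.99, 5.14 and 4.87 against 4.31, 4.30 and 4.38, and EIF3H 6.36, 6.47 and 6.11 against 5.68, 5.79 and 5.75. Later values of both genes lay within a narrow band under all earlier ones. The 2 measured cytosolic ribosomal protein genes, RPS7 and RPL12, were both lower, at -1.07 and -0.66, though RPS7 lay under the 20th percentile on all 6 arrays.

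Metabolic and activity genes were mixed. Of 42 listed oxidative phosphorylation genes 8 were measured, with 7 differences below 0, 1 above and a list median of -0.24. The 1 above 0, NDUFS1 of complex I, was higher, at 0.46, and CYC1 of complex III was lower, at -0.44. Cholesterol synthesis genes had 0 of 12 members at the unadjusted level, and their median of -0.25 was -0.02 without the 30-day array. Among 20 immediate early genes, JUN was higher at 0.37 and KLF6 lower, and the median of 0.18 was 0.04 without that array and -0.03 with the floor at the 20th percentile. Matrix genes of the brain had 1 higher and 2 lower of 12. The higher one was TNR, a glycoprotein of perineuronal nets, at 4.68, 4.74 and 4.97 against 5.20, 5.41 and 5.08, and the lower ones were HAS2 and VCAN. No member of the lists of glycolysis, chaperones, splicing regulators, neurotrophins, monoamine and acetylcholine receptors or fetal-type RNA-binding proteins reached the unadjusted level. Among 6 striatal markers PDYN, an opioid precursor, was higher at 0.61, but all 6 of its values lay under the 20th percentile.

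The 30-day array was then set against the rest. It held the most extreme value of the later group, in the direction of the difference, in 60.2% of the 739 rows at an unadjusted p under 0.05, against 47.2% of all rows. The same share was 19.8% for the 42-day array and 20.03% for the 35-day array. Within the earlier group, the 57-day array lay farthest from the later animals in 49.4% of the 739 rows, against 49.2% of all rows. By direction the 30-day array was the extreme in 183 of the 332 higher rows and in 262 of the 407 lower ones. Without it, 326 of the 739 rows (44.1%) still had an unadjusted p under 0.05, the lowest share for any of the 6 arrays, and the median row kept 0.877 of its difference. For the other 5 arrays the shares ran from 53.7% to 65.6%. In 613 of the 739 rows the 42- and 35-day arrays alone already lay beyond all 3 earlier arrays. With all 6 arrays the groups were already separate in 595 of the 739, and these had to stay separate without the 30-day array. The same count was not made over all rows, so the 613 do not show how far the order depended on that array. So the 30-day array held the most extreme later value in most of the 739 rows.

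**Figure D3:**
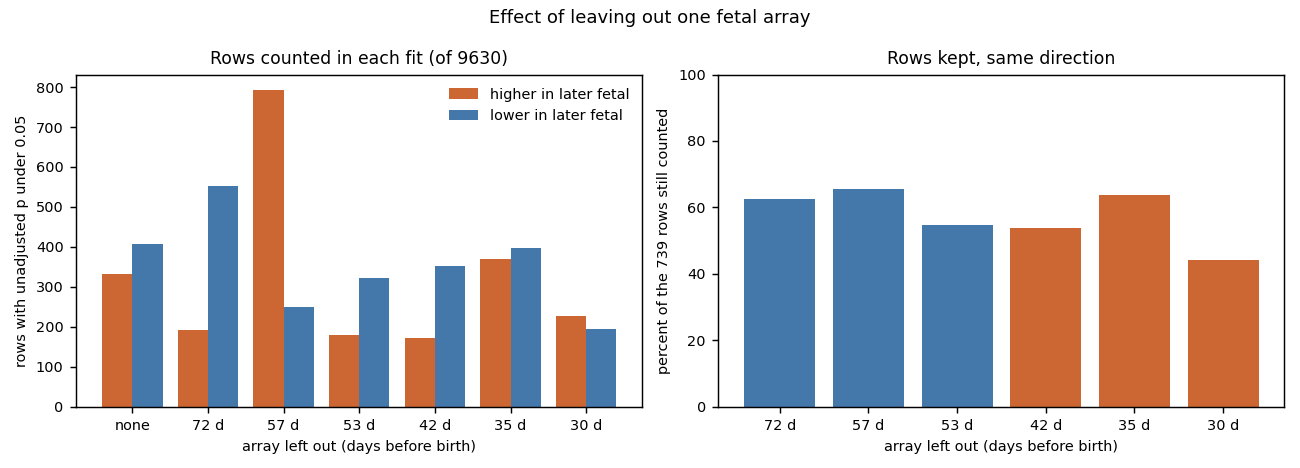
Left, number of rows with a limma unadjusted p under 0.05 (y axis, higher and lower in the later animals) with all 6 fetal arrays and with each left out in turn (x axis). Right, percent of the 739 rows that keep that level and their direction (y axis) without each array, with earlier arrays in blue and later ones in orange. Without the 30-day array 44.1% are kept, and the counts are fewest, 421, against 1042 without the 57-day array.

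Counts moved with other arrays too. Without the 30-day array 421 rows (4.37%) had an unadjusted p under 0.05, 228 higher and 193 lower, and the smallest adjusted p was 0.997. Without the 57-day array there were 1042 (10.8%), 792 higher and 250 lower. The balance of directions was 192 to 553 without the 72-day array, 179 to 323 without the 53-day array, 172 to 352 without the 42-day array and 369 to 397 without the 35-day array. Leaving out an array leaves 3 animals against 2, and 0 rows were called in each of these 6 fits.

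Single genes showed how far 1 animal could carry a difference. The 5 genes per direction whose difference shrank most without the 30-day array were taken among rows at an unadjusted p under 0.05. RGS4, which shortens G-protein signalling in cortical neurons, measured 5.89, 6.16 and 6.19 in the earlier animals and 7.93, 6.25 and 9.17 in the later ones. Its difference of 1.71 ± 0.56 (SE) became 1.01, and the 35-day animal lay just above the earlier group. TUBA4A, an alpha tubulin of mature neurons, measured 3.53, 3.68 and 3.10 against 4.58, 3.96 and 5.31, a difference of 1.18 that became 0.84. ZMAT4 and CNNM1 went from 0.87 to 0.52 and from 0.78 to 0.44, and GFAP was the fifth gene. ZMAT4 had 3 fetal values under the 20th percentile and CNNM1 had 5. With all fetal arrays and values raised to that floor, ZMAT4 differed by 0.47 and CNNM1 by 0.20.

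LPL, which frees fatty acids from lipoproteins, measured 6.23, 7.02 and 6.33 in the earlier animals and 5.18, 6.53 and 3.21 in the later ones. Its 35-day value lay inside the earlier range, and the difference of -1.56 became -0.67. VCAN, a large matrix proteoglycan, measured 5.64, 5.84 and 6.02 against 5.34, 5.60 and 4.20, and its difference of -0.79 became -0.36. KLHL1, a neuronal actin-binding protein, measured 8.07, 7.82 and 7.80 against 7.39, 7.80 and 6.44. STK32B, a kinase, and SLCO5A1, a membrane transporter, went from -0.998 to -0.60 and from -0.85 to -0.44. In every gene taken for its shrinkage except CNNM1, the later animals were not in the order of their ages. In each, the 42-day value lay between those of the 35-day and 30-day animals.

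**Figure D4:**
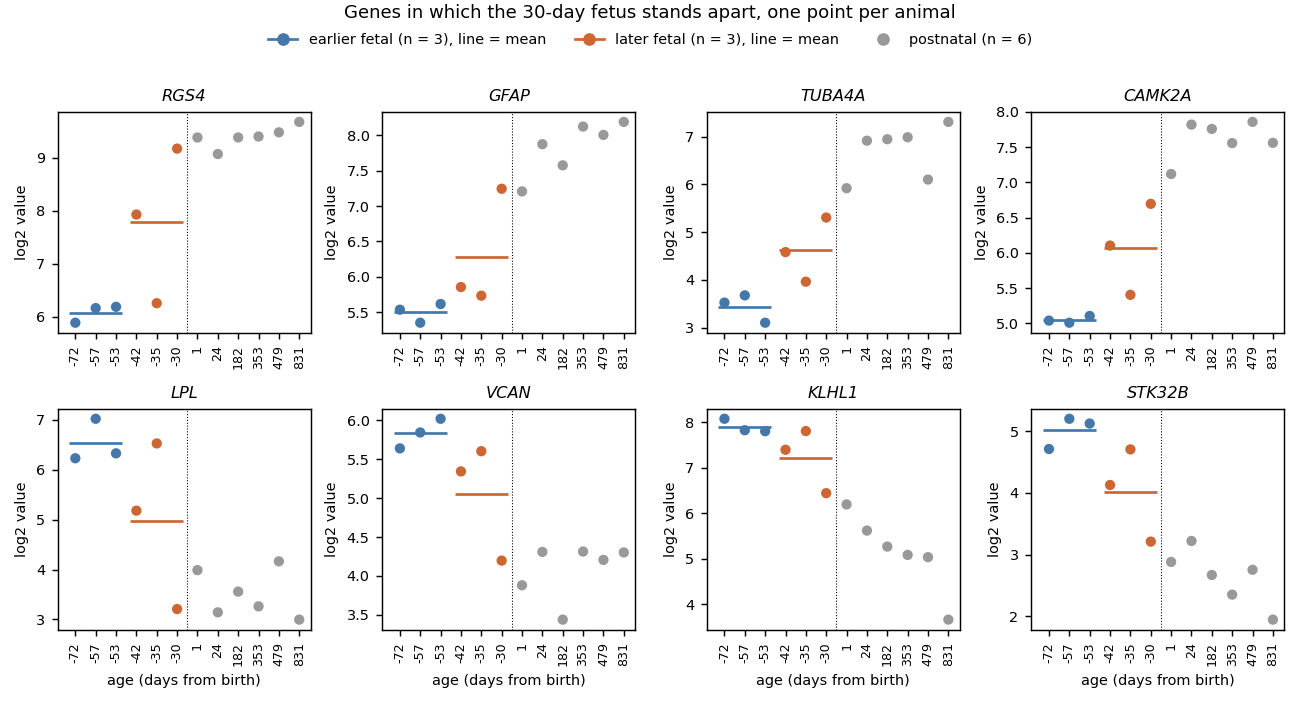
Deposited log2 values (y axes) of 8 genes against age in days from birth (x axes, animals evenly spaced in order of age), 1 point per animal, with lines at the means of the fetal groups and the 6 postnatal animals in grey. In RGS4 the 30-day value is 9.17 against 7.93 and 6.25 in the other later animals, and in LPL it is 3.21 against 5.18 and 6.53.

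The 30-day values of several of these genes reached the postnatal range. RGS4 lay between 9.07 and 9.67 after birth and GFAP between 7.21 and 8.19, against 30-day values of 9.17 and 7.24. To describe this across rows, each fetal array was set against the other 5 in the rows where those 5 did not overlap the 6 postnatal arrays. In 1914 such rows the 30-day array lay a median 45.0% of the way from the mean of the other fetal arrays to the postnatal mean, and it reached the postnatal range in 615 of them (32.1%). The corresponding median was 17.1% for the 57-day array, 11.8% for the 42-day array, -7.06% for the 35-day array, -14.1% for the 53-day array and -15.3% for the 72-day array. After centring on array medians the 30-day array lay at 43.2% and the 57-day array at 11.6%. The order of the 6 positions therefore did not follow age, with the 57-day animal above the 53-day one and the 42-day animal above the 35-day one. These rows were selected with the other 5 fetal arrays, a different set for each array, so the positions are a description without a test.

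**Figure D5:**
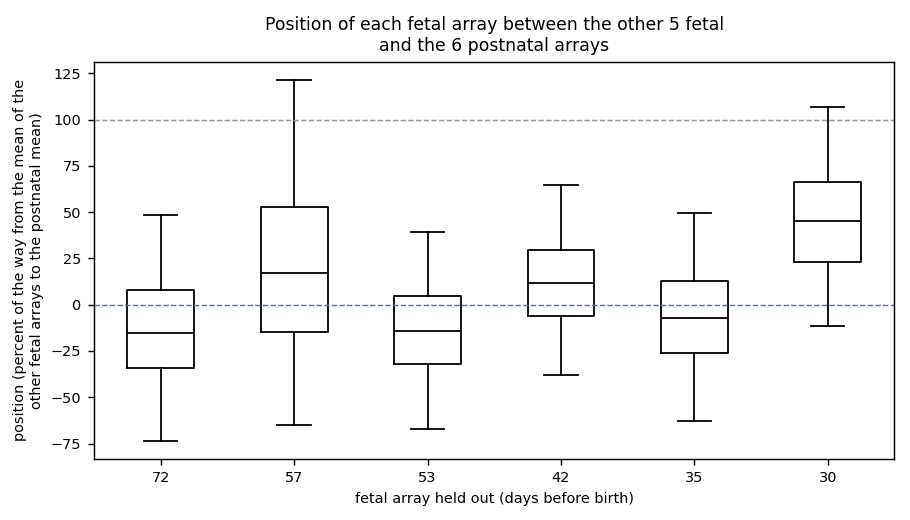
Position of each fetal array (x axis, by days before birth) between the mean of the other 5 fetal arrays, at the lower dashed line, and the postnatal mean, at the upper one (y axis, percent of the way), over rows where those groups do not overlap. Boxes give median and quartiles and whiskers the 5th to 95th percentile of rows, and the 30-day median of 45.0% is the highest of the 6.

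With age in days as the term, slopes were ranked among genes with at least 5 of 6 fetal values above the 20th percentile of their arrays. SV2C, a synaptic vesicle protein, had the smallest slope p of all rows (limma adjusted p = 0.521) and was left out of that ranking, with 1 of its 6 values above that level. Among the genes ranked, the smallest p-values among slopes toward higher values belonged to CLSTN2, PDE7B, TRAPPC6B, KCNA1 and SMAD3, a mediator of transforming growth factor signals. CLSTN2 had a slope of 0.32 ± 0.07 (SE) log2 units per 10 days toward birth. Among slopes toward lower values, under the same filter, they belonged to PSMB6, PTH2R, FRZB, HNRNPA1, an RNA-binding splicing protein, and ISYNA1, which makes inositol phosphate. PSMB6 had a slope of -0.36 ± 0.06 (SE) and limma adjusted p = 0.628, and the other 9 had limma adjusted p = 0.793. SMAD3 measured 2.78, 3.32 and 3.20 in the earlier animals and 4.07, 3.50 and 4.13 in the later ones, and HNRNPA1 4.60, 4.55 and 4.17 against 3.86, 3.70 and 3.61. HNRNPA1 was lower at every step toward birth, whereas SMAD3 had its highest values at 30 and 42 days.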

How the data were processed

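RNA of superior frontal gyrus from 6 fetal macaques was measured on 1 human-design array per animal. The authors deposited 9630 rows of log2 expression values for 12 arrays. The log base, background correction, normalization, row selection and batches are not given in the sources here, and base 2 was read from the values' range, so every fold rests on it. The build hg 18 is from the submitters' processing notes. Macaque mismatches to human probes can dim a row, so levels of different genes were not compared. The number of arrays limits the precision. Replicates were numbered by accession, which pairs no animals.

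Of the rows, 8848 had 1 gene symbol in the platform annotation, 229 had several and 553 none, and only the first were named. For the 52 genes with several rows 1 row was used. Differences and slopes were fitted with limma 3.58.1 in R 4.3.3 (lmFit, eBayes) on the 6 fetal arrays, adjusted by Benjamini-Hochberg over all rows. Scripts were tested on simulated data.

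The members, the 36 gene lists and the rules were chosen with earlier results of these data known. The rule for named genes took 10 genes per direction by size of difference among called genes, or by smallest p where none was called. Only genes whose groups did not overlap could enter, and those whose higher group had a value under its array's 20th percentile were left out. The rule also took from each list the called members with the largest differences, or the member with the smallest p. It further took the 5 genes per direction that shrank most without the 30-day array. Last came the 5 smallest slope p-values per direction among genes with at least 5 of 6 fetal values above that percentile. Since no row was called, the shrinkage rule was applied at an unadjusted p under 0.05. Other genes, the 3 added lists, the shares at an unadjusted p and the array positions were chosen after values were seen. The settings changed 1 at a time were the scaling (quantile, or median-centred arrays), dropping the dimmest 25% of rows, raising low values to the 20th percentile, eBayes with trend and robust, array weights, all 12 arrays in 4 groups, each fetal array left out, and the mean of a gene's rows.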

Additional observations from a re-analysis of the deposited data

How the results depend on the processing

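No paired analysis was possible because each fetal array came from a different animal with an age of its own. Called rows numbered 0 under all settings except array weights (401 higher, 180 lower) and the floor at the 20th percentile (2 lower, PTH2R and a row without a gene symbol), and slopes called 0 rows in every setting run. At an unadjusted p under 0.05, higher rows numbered 548 with quantile scaling, 601 with median-centred arrays and 1700 with array weights, and lower rows 817 with array weights. Leaving out 1 array gave 172 to 792 higher and 193 to 553 lower rows. Directions turned in 14 of the 1479 values computed for named genes, all in 6 genes. ALAS2 was 0.068 with array weights and -0.34 to 0.27 with 1 array left out, MAG -0.71 to 0.0098 and HSPA5 -0.32 to 0.047 with 1 array left out. PDYN, BDNF and MBP were each -0.029 with the floor. MBP was also -0.011 with quantile scaling, -0.22 to 0.46 with 1 array left out and -0.032 when centred without the 30-day array, a setting chosen after seeing the data. The cause was not tested. Of the 39 list medians 22 kept their sign in every setting. The unadjusted counts were likewise run after the data were seen. Values under the 20th percentile carry little signal over background, and 3 animals against 3 cannot give an exact permutation p under 0.1.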

Other observations

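In some of the proteasome and translation genes described above, the 3 later fetal values lay below those of all other animals, postnatal ones included. This held for 4 of 26 measured proteasome subunits (PSMB1, PSMB3, PSMB6 and PSMB7), 1 of 11 subunits of translation initiation factor 3 (EIF3K) and RPS7, against 145 of 9630 rows (1.51%). PSMB6 lay between 3.07 and 3.34 in the later fetal animals, against 3.93 to 4.55 in the earlier ones and 3.80 to 4.58 after birth. EIF3K lay between 4.30 and 4.38, against 4.87 to 5.14 and 5.13 to 5.92. It did not hold for PSMA7, PSMA2, PSMB5, PSMD10, EIF3E, EIF3H, EIF3M or RPL12, where at least 1 later fetal value lay above the lowest of the other animals. In PSMA7 the 35-day value of 5.83 lay above the postnatal minimum of 5.68, and in EIF3H all 3 later values, 5.68 to 5.79, lay above the postnatal minimum of 5.50. These genes were picked after their values had been seen, and no test was made.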
